A study of Mus musculus with 6 samples.

Results

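The REV-ERB and ROR nuclear receptors are the genes Nr1d1 (REV-ERB alpha), Nr1d2 (REV-ERB beta), Rora and Rorb. They were taken as every probe set that the array's annotation assigns to exactly 1 of these symbols, which gave 7 of 22690 probe sets and 4 of 12393 singly named genes. Nr1d1 has 1 such probe set, Nr1d2 has 2, Rora has 3 and Rorb has 1. The arrays hold RNA from whole pituitaries of male C57BL/6J mice, 8 to 12 weeks old and housed under 12 h of light and 12 h of dark. The glands were frozen after death at zeitgeber time (ZT) 12, when the lights go off. There were 3 arrays of wild type mice (replicates 1 to 3) and 3 labelled Bmal1-/- (replicates 4 to 6), and each array carries RNA pooled from 3 glands, so a replicate is a set of animals and not a single mouse. The labels call the Bmal1-/- mice clock-deficient, and the kind of allele was not given in the sources used here.

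REV-ERB and ROR proteins bind the same DNA element, called the RORE, an AGGTCA core after a stretch rich in A and T. RORs activate transcription from it. REV-ERBs, which bind heme and recruit the NCoR corepressor with the histone deacetylase HDAC3, repress from it. In the circadian clock BMAL1, encoded by Arntl, drives the REV-ERB genes through E-boxes with CLOCK or NPAS2, and the REV-ERBs in turn repress Arntl and other RORE genes, which closes a feedback loop.

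Values are MAS5 intensities on a linear scale, with n = 3 arrays per genotype throughout, so precision is limited by the number of arrays. The array medians were 33.5 to 34.3 in wild type and 31.7 to 32.2 on the arrays labelled Bmal1-/-. Of 9 anterior pituitary markers 8 were on the array, with a summed intensity of 61214 to 69660 in wild type and 55412 to 58253 on the other arrays. Of the 8, 2 fell, the hormone genes Gh (-0.27 on the log2 scale, limma adjusted p = 0.0217) and Cga (-0.31, limma adjusted p = 0.019). Over all tested genes 2.66% fell. Pomc (-0.24) and Fshb (-0.28) read lower without overlap and did not pass. Lhb (0.18) and Pitx1 (0.07) read higher with overlap. The targeted gene is no check of the labels here, because the Arntl probe set read higher on the arrays labelled Bmal1-/- and no source used here gives its place relative to the deleted part. Directions below are therefore those of the arrays as labelled. In whole glands, fewer cells of a type and less RNA per cell cannot be told apart. All arrays are from ZT 12, so a change of the level over the day and a change of daily timing cannot be told apart either.

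Both REV-ERB genes fell sharply on the arrays labelled Bmal1-/-, and neither Rora nor Rorb passed the test. On the scale used here Nr1d2 ranked 1 by absolute fold change among all 13576 tested probe sets, and Nr1d1 ranked 8. Of the 7 probe sets, 6 were bright enough on average to be tested, and 3 of those 6 fell. The filter took the mean over all 6 arrays, and the dimmest tested mean was 17.3. Nr1d1 and the Nr1d2 probe set 1416959_at read below this on every array labelled Bmal1-/-. These 2 probe sets thus entered the test only through their wild-type readings. Among all tested probe sets 5.54% changed, 2.78% fell and 2.75% rose, by limma at an adjusted p under 0.05. Those 374 higher and 378 lower probe sets became 622 and 275 when the arrays were scaled to equal medians, and the 3 REV-ERB probe sets fell there too. Fold changes are differences of log2(intensity + 16) between genotypes, Bmal1-/- minus wild type, a scale that understates the change of dim probe sets.

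Nr1d2 encodes REV-ERB beta, the paralogue that shares the repressor role of REV-ERB alpha. Its brighter probe set, 1416958_at, read 1083.4, 1309.8 and 1424.7 in wild type and 63.8, 91.5 and 79.9 on the arrays labelled Bmal1-/-. Every wild-type array was thus far above every other array, with no overlap. The wild-type readings exceeded at least 97.8% of probe sets on their own array and the others between 63.0% and 69.9%. The mean went from 1273 ± 174 (SD) to 78.4 ± 13.9, a ratio of 16.2 between the linear means, and the log2 fold change came to -3.77 (SE 0.13, 95% interval -4.05 to -3.50, limma adjusted p = 1.21e-08).

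The second Nr1d2 probe set, 1416959_at, is dim. It read 46.8, 48.9 and 66.3 in wild type and 3.8, 6.3 and 0.8 in the Bmal1-/- pools, again without overlap. All 3 lower readings lie at the floor of the scale, so no ratio of linear means is given. The log2 fold change was -1.83 (SE 0.18, 95% interval -2.21 to -1.45, limma adjusted p = 9.68e-05), and the added 16 exceeds all 3 of the lower readings. Both Nr1d2 probe sets thus fell, and the size of the fall of the dim one is not settled.

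Nr1d1 encodes REV-ERB alpha, a core repressor of the clock loop. Its probe set, 1426464_at, read 68.5, 57.9 and 69.5 in wild type and 3.6, 9.3 and 2.6 on the arrays labelled Bmal1-/-. The genotypes did not overlap, and the lower readings exceeded only 15.3% to 29.7% of probe sets on their arrays, so the gene was close to the bottom of the measurable range there. The mean fell from 65.3 ± 6.43 to 5.17 ± 3.61, with a log2 fold change of -1.95 (SE 0.17, 95% interval -2.31 to -1.59, limma adjusted p = 5.05e-05). At 25.9% of all tested probe sets the genotypes did not overlap.

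**Figure D1:**
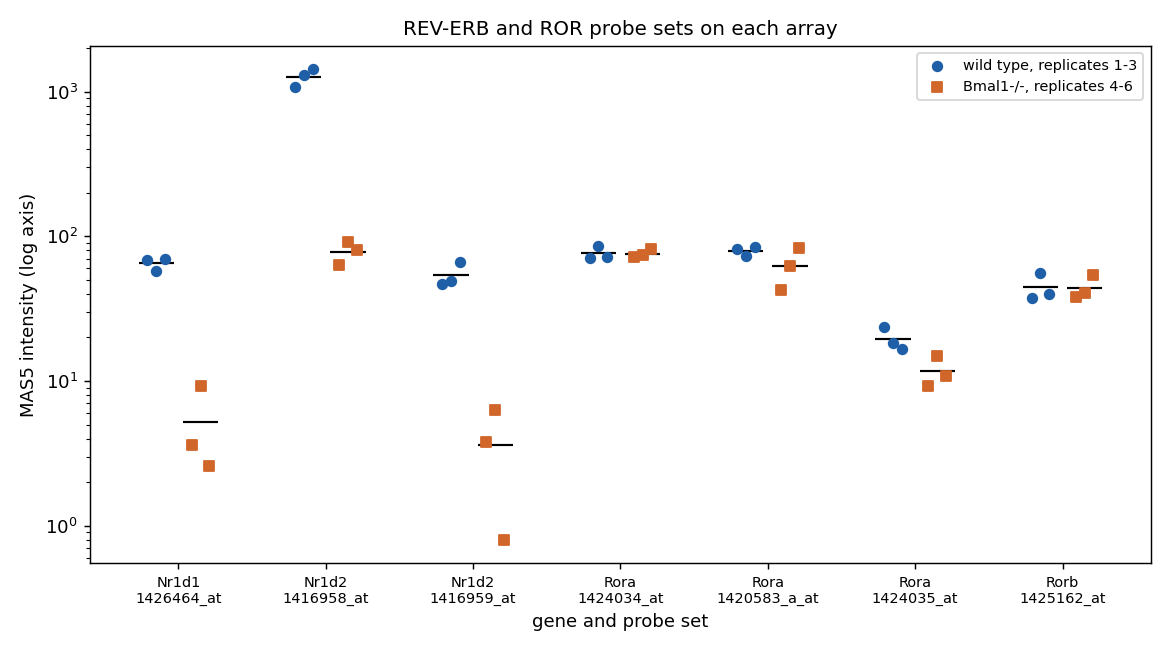
Intensity on a log axis for each of the 7 REV-ERB and ROR probe sets, with 1 point per array, circles for wild type and squares for arrays labelled Bmal1-/-, and bars for the mean of 3 arrays. The 3 Nr1d1 and Nr1d2 probe sets separate the genotypes completely, 2 of the 3 Rora probe sets and that of Rorb overlap, and the dim Rora probe set 1424035_at does not overlap.

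Whether one paralogue fell further than the other depends on how low readings are treated. The difference of the 2 log2 levels, Nr1d2 (1416958_at) minus Nr1d1, was 3.70, 4.17 and 4.07 in wild type and 2.03, 2.09 and 2.37 on the arrays labelled Bmal1-/-. The fold change of Nr1d2 was thus more negative by -1.82 (SE 0.18, exact two-sided permutation p = 0.1, the smallest that 3 arrays against 3 allow). With 1 added in place of 16 the difference was -0.43 (exact permutation p = 0.5), and with the dim Nr1d2 probe set it was 0.12 (exact permutation p = 0.4). The Nr1d1 readings on the arrays labelled Bmal1-/- lie at the floor of the scale, so which paralogue fell further is not settled by these values.

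**Figure D2:**
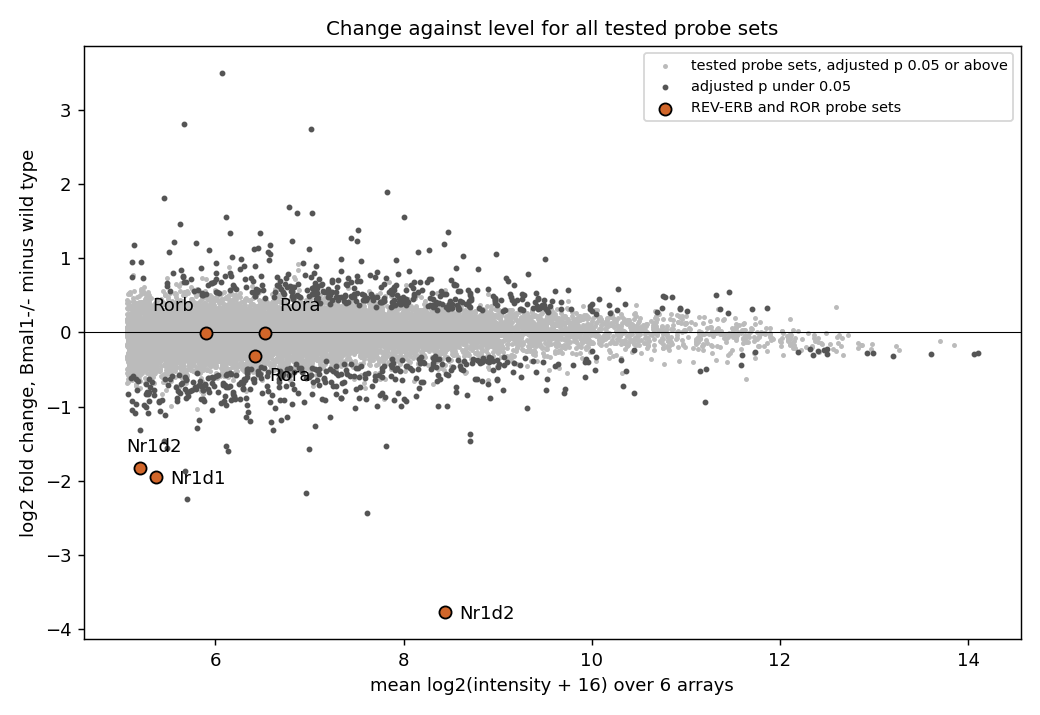
Log2 fold change (Bmal1-/- minus wild type) against mean log2(intensity + 16) for the 13576 tested probe sets, light grey where the adjusted p was 0.05 or above and dark grey below it, with the 6 tested REV-ERB and ROR probe sets as large labelled points. Nr1d2 at -3.77 is the lowest point of the plot, Nr1d1 at -1.95 and the second Nr1d2 probe set at -1.83 lie at low signal, and Rora and Rorb sit near 0 except for the Rora probe set at -0.31.

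The genes' promoters are shown because Nr1d1 and Nr1d2 fell together and BMAL1 is known to act through E-boxes. Sequences are RefSeq's on GRCm38.p6, 5′ to 3′ on the gene's own strand, and cover the 250 bases before the annotated start. All 4 genes had an entry, Rorb with 2 starts. Capitals mark a match, on either strand, to CACGTG (E-box), CACGTT (the variant E-prime box), AGGTCA (the receptor core), that core directly after AANT (a RORE), TTATGTAA or TTACGTAA (D-boxes).

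Nr1d1, chr11:98775378-98775627, minus strand: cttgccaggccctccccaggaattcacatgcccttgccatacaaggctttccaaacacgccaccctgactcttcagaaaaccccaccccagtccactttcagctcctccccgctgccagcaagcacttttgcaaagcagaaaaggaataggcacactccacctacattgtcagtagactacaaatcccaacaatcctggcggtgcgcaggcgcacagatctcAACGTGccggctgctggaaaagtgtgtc
Nr1d2, chr14:18239107-18239356, minus strand: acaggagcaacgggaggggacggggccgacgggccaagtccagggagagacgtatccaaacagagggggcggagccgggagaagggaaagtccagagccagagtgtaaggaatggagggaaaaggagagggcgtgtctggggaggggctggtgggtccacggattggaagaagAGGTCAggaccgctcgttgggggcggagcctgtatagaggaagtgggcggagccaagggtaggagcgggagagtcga
Rora, chr9:68653536-68653785, plus strand: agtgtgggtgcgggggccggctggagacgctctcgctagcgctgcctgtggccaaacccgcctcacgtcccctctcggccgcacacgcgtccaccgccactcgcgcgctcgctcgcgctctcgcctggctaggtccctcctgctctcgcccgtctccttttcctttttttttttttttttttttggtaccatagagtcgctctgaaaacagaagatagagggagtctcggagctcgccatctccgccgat

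The Nr1d1 sequence holds an E-prime box, read as AACGTG on this strand, whose first base is at position -28 (the first transcribed base is 1), and the Nr1d2 sequence holds an AGGTCA core at position -77. Neither holds CACGTG, a RORE or a D-box in this window, which was searched to 50 bases past the start as well. Rora had no match. Of the 2 Rorb starts, 1 had an E-prime box at position -234. For comparison, of 32851 RefSeq windows of 300 bases, 7.15% hold CACGTG, 4.68% CACGTT, 16.3% AGGTCA, 0.219% the RORE, 0.938% TTATGTAA and 0.119% TTACGTAA. They are letters found in a window and say nothing of binding, and elements further away or inside the genes were not searched.

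Rora encodes ROR alpha, an activator at the element that REV-ERBs repress. Its brightest probe set, 1424034_at, read 71.3, 85.5 and 72.4 in wild type and 71.8, 74.6 and 81.8 on the arrays labelled Bmal1-/-. The genotypes overlapped fully, and the log2 fold change was -0.0033 (SE 0.12, 95% interval -0.27 to 0.26, limma adjusted p = 0.991). That interval leaves room for a small change of either sign, and the sign itself turned under other scalings.

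The 2 other Rora probe sets read lower on average on the arrays labelled Bmal1-/- without passing. For 1420583_a_at the readings were 81.8, 72.6 and 84.0 in wild type and 42.6, 62.3 and 82.4 on the others (log2 fold change -0.31, SE 0.17, 95% interval -0.69 to 0.06, limma adjusted p = 0.325). Replicate 6 lay among the wild-type arrays and replicate 4 far below them, and the value was -0.12 without replicate 4 (limma adjusted p = 0.734) and -0.49 without replicate 6 (limma adjusted p = 0.145). The dim 1424035_at read 23.6, 18.2 and 16.7 against 9.2, 15 and 10.8, without overlap, and fell short of the brightness needed for the test. Fitted with no filter on low values its log2 fold change came to -0.36 (SE 0.16, limma adjusted p = 0.332). The 3 Rora probe sets thus disagree in size, and no source used here says which transcripts each detects.

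Rorb encodes ROR beta, known from the retina, the pineal gland and the brain. Its probe set, 1425162_at, read 37.6, 55.5 and 40.2 in wild type and 38.3, 40.5 and 53.7 on the arrays labelled Bmal1-/-. In each genotype 1 array (wild-type replicate 2 and Bmal1-/- replicate 6) stood above the other 2, and the ranges coincided. The log2 fold change was -0.0035 (SE 0.16, 95% interval -0.35 to 0.35, limma adjusted p = 0.993). Pineal markers were near 0: Tph1, an enzyme of serotonin synthesis, read 0.5 to 10.1 over the 6 arrays, and Aanat, which makes the melatonin precursor, read 2.1 to 12.2. Of the listed brain neuron markers, Slc17a6 read 59.1 to 80.2, and Gad1, Gad2 and Neurod6 read at most 17.2.

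Target genes of these receptors within the clock rose without exception. All 5 listed genes, Arntl, Clock, Npas2, Cry1 and Nfil3, passed and rose, with a median log2 fold change of 1.23. Over the 8033 tested genes the median was -0.00034, 3.00% rose and 2.66% fell. The list was assembled with earlier results of these data known, so this count is a description. Npas2, a partner of BMAL1, read 3.2, 6.6 and 0.2 in wild type and 134.5, 110.9 and 111.3 on the arrays labelled Bmal1-/-. Thus the gene was near the bottom of the scale in every wild-type gland pool and clearly above it in the others (2.81 on the log2 scale, SE 0.16, limma adjusted p = 1.82e-06). Npas2 passed the brightness filter only through the arrays labelled Bmal1-/-. Cry1, a repressor of CLOCK and BMAL1, read 95.7, 95.5 and 115.2 against 361.6, 436.7 and 467.9 (1.89, SE 0.12). Arntl itself read 39.6, 51.7 and 38.6 against 112.1, 102.0 and 127.5 (1.13, SE 0.14).

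Nfil3 and Clock moved less than Npas2 and Cry1 on this scale. Nfil3, a repressor at D-boxes, read 51.6, 58.3 and 62.5 in wild type and 127.1, 164.7 and 182.8 on the arrays labelled Bmal1-/- (1.23, SE 0.14). Clock read 108.6, 101.3 and 113.7 against 191.8, 179.3 and 184.2 (0.70, SE 0.10), and its second probe set rose too, by 0.62 (SE 0.13, limma adjusted p = 0.0186). None of these 5 genes overlapped between the genotypes at its brightest probe set, which held for 25.9% of all tested probe sets. A second Npas2 probe set, too dim on average for the test, read 1.6, 4.0 and 0.6 against 42.7, 25.2 and 30.1.

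Among the promoters of these targets, that of Arntl carried the long RORE motif, shown because this element is where REV-ERB and ROR are known to meet. Around it the RefSeq sequence on the plus strand of chromosome 7 (GRCm38.p6), with the motif in capitals, reads as follows.
Arntl: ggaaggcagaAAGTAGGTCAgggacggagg
The motif begins at position 28 after 1 of the 2 annotated Arntl starts. Clock (1 of 3 starts) and Nfil3 held the AGGTCA core alone, at positions -119 and -12, Cry1 held an E-box at position -60 and an E-prime box at position -79, and Npas2 held none of the motifs in its window.

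Outside the clock, few listed targets were bright enough to follow. Of 15 listed genes 14 were on the array and 5 were tested: Lpl rose, none fell and 4 did not pass. Over all tested genes 3.00% rose and 2.66% fell. Of the 5, 1 (20%) was at an unadjusted p under 0.05 in limma, against 21.5% of all tested genes. Lpl, lipoprotein lipase, read 243.1, 193.7 and 208.6 in wild type and 309.0, 322.5 and 313.6 on the arrays labelled Bmal1-/- (log2 fold change 0.52, SE 0.10, limma adjusted p = 0.0098), and its other, dimmer probe set gave 0.25 (limma adjusted p = 0.438). The other tested genes, Insig2, Plin2, Ulk1 and Stk11, lay between 0.04 and 0.15 by their brightest probe sets. Dimmer Insig2 probe sets were at -0.01 (limma adjusted p = 0.964) and -0.25 (limma adjusted p = 0.364). A Ulk1 probe set too dim for the test read 11.9, 13.4 and 14.6 in wild type and 18.4, 24.6 and 18.9 on the others. With no filter on low values it was at 0.32 (limma adjusted p = 0.366). Hepatic targets such as G6pc, Pck1, Fgf21 and Elovl3 stayed at or below 12.0 on every array.

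Fabp7, a brain-type fatty acid binding protein known as a REV-ERB alpha target, was left out by the brightness filter and is named after its values were seen. It read 0.3, 5.4 and 0.5 in wild type and 32.4, 52.2 and 40.5 in the Bmal1-/- pools, without overlap. Its log2 fold change was 1.67 with no filter on low values (SE 0.19, limma adjusted p = 0.00339). The Fabp7 promoter window held an AGGTCA core at position -171. Fabp7 is also expressed by glia, and 4 glial markers were on the array. Mbp, a myelin gene, rose from 95.3 ± 9.44 to 143 ± 8.74 (0.52, SE 0.11), while Mog and Mobp read at most 5.6. Gfap, too dim for the test, went the other way on average, with overlap. It read 25.5, 8.2 and 20.0 in wild type and 11.2, 11.2 and 5.7 on the arrays labelled Bmal1-/-. The summed level of the 4, most of it Mbp, was 93.3 to 131.7 in wild type and 147.5 to 161.6 on the other arrays. The part of glial cells in the Fabp7 values was not tested.

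**Figure D3:**
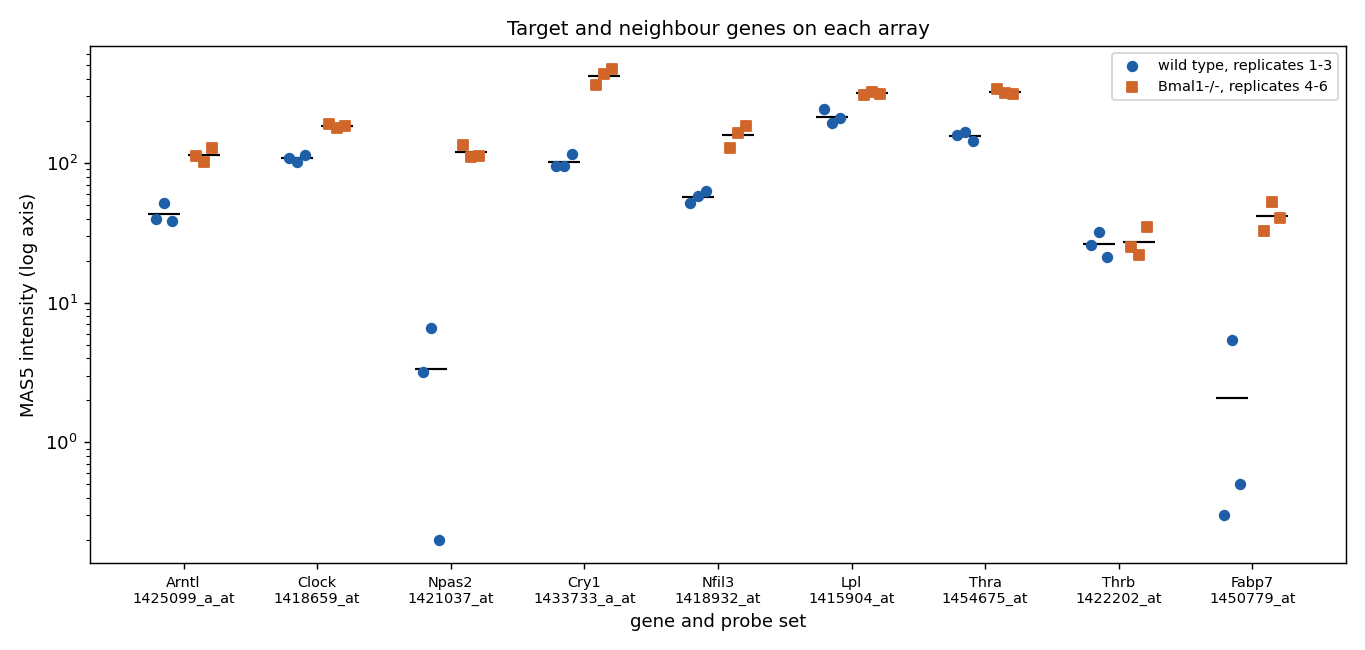
Intensity on a log axis for 5 clock targets, Lpl, the receptor genes Thra and Thrb beside the REV-ERB genes, and Fabp7, with 1 point per array, circles for wild type, squares for arrays labelled Bmal1-/- and bars for the mean of 3 arrays. All but Thrb read higher on every array labelled Bmal1-/- than on any wild-type array, and Npas2 and Fabp7 were below 7 on all wild-type arrays.

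The partners and ligand supply of the receptors showed small differences at the brightest tested probe sets. Of 11 listed corepressor and coactivator genes 6 were tested, and none passed in limma, with 1 at an unadjusted p under 0.05, which 21.5% of all tested genes reached. That gene was Tbl1x, a subunit of the NCoR complex, which read 253.4, 231.7 and 234.4 in wild type and 289.3, 275.5 and 314.2 on the arrays labelled Bmal1-/- (log2 fold change 0.27, SE 0.09, limma adjusted p = 0.102). Hdac3, the deacetylase of the same complex, was at 0.12 (SE 0.12), and Tbl1xr1, the paralogue of Tbl1x, at 0.16 (SE 0.11). A Tbl1xr1 probe set too dim for the test read 11.1, 7.3 and 9.3 in wild type and 1.8, 5.0 and 1.0 on the others. With no filter on low values it was at -0.44 (limma adjusted p = 0.162). Ncoa2, also too dim, was then at -0.55 (limma adjusted p = 0.185), and the Ppargc1a probe sets ran from -0.19 to 0.48, none passing. None of 5 tested genes for REV-ERB protein turnover passed in limma, with 0 at an unadjusted p under 0.05 by their brightest probe sets. A dimmer probe set of the ubiquitin ligase gene Siah2 did not overlap, at 30.9, 24.2 and 31.6 in wild type and 32.7, 51.3 and 43.4 on the arrays labelled Bmal1-/- (0.37, SE 0.16, unadjusted p = 0.0394, limma adjusted p = 0.207), while the brighter one was at 0.11 (SE 0.16). The list also held the ubiquitin ligase genes Huwe1 (0.16, SE 0.13) and Mycbp2 (0.10, SE 0.14), and the kinase Gsk3b, which phosphorylates REV-ERB alpha (0.03, SE 0.18).

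Heme is the ligand of REV-ERB, and its pathway was well covered. All 14 listed heme genes on the array were tested, 1 fell and 13 did not pass, with a list median of -0.04 that was 0.02 with equal array medians. Over all tested genes 3.00% rose and 2.66% fell. Of the 14, 2 (14.3%) were at an unadjusted p under 0.05 in limma, against 21.5% of all tested genes. Alas1, the rate-limiting enzyme of heme synthesis, read 173.1, 188.6 and 163.9 in wild type and 159.1, 166.1 and 173.0 on the arrays labelled Bmal1-/- (-0.07, SE 0.10, limma adjusted p = 0.745). Hmox1, which breaks heme down, was at -0.36 (SE 0.21, limma adjusted p = 0.356). The gene that fell, Pgrmc1, a heme-binding membrane protein, went from 1498 ± 51.8 to 1268 ± 1.75 (-0.24, SE 0.06, limma adjusted p = 0.0495). Omitting any single array ended this call (limma adjusted p up to 0.145, without wild-type replicate 3), as did 6 other alternatives.

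Regulators of the REV-ERB genes moved in both directions. Of 16 listed E-box and D-box factors 13 were tested, 6 rose and 4 fell, and 5 of the 6 that rose are the clock targets above. Over all tested genes 3.00% rose and 2.66% fell. The list was assembled with earlier results of these data known, so these counts are a description. Dbp, a D-box activator that BMAL1 drives, read 375.2, 490.5 and 455.0 in wild type and 58.5, 80.5 and 66.9 on the arrays labelled Bmal1-/- (-2.43, SE 0.13, limma adjusted p = 8.81e-07). Per3, a period gene, read 80.9, 103.6 and 124.7 against 26.7, 21.7 and 25.4 (-1.54, SE 0.16, limma adjusted p = 0.000152). Other Per3 probe sets were too dim for the test. With no filter on low values, 1460662_at was at -0.67 without overlap (limma adjusted p = 0.0567). On the same fit 1421086_at was at 0.01 with overlap (limma adjusted p = 0.985). Over the alternatives, 5 or 6 of the listed factors rose and 3 or 4 fell.

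Among nuclear receptors, both REV-ERBs lay below all 20 others that were tested. Of 45 other listed nuclear receptor genes 38 were on the array and 20 were tested: 1 rose, 1 fell and 18 did not pass, with log2 fold changes from -0.60 to 0.97 and a median of -0.09. The share that changed over all tested genes was 5.66%. Vdr, the vitamin D receptor, fell from 47.6 ± 10.4 to 25.6 ± 2.72 (-0.60, SE 0.16, limma adjusted p = 0.0499), with its second probe set at -0.70 (limma adjusted p = 0.0281). The first call ended on omission of any one array except wild-type replicate 2 (limma adjusted p up to 0.167).

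Thra, which encodes thyroid hormone receptor alpha and overlaps Nr1d1 on chromosome 11 in the RefSeq gene table, rose. Its brighter probe set, 1454675_at, read 159.7, 167.1 and 144.7 in wild type and 337.8, 319.2 and 311.2 in the Bmal1-/- pools, without overlap (log2 fold change 0.97, SE 0.09, limma adjusted p = 9.8e-05). The dim 1426997_at read 36.9, 27.8 and 31.4 against 42.4, 41.4 and 30.2 and did not pass (0.17, SE 0.15, limma adjusted p = 0.592). So Nr1d1 and the gene overlapping it moved in opposite directions, at 1 of 2 Thra probe sets. No source used here says where these probe sets lie relative to the overlap.

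At the Nr1d2 locus the nearest receptor gene did not pass. Thrb, thyroid hormone receptor beta, is separated from Nr1d2 on chromosome 14 by 1 unnamed gene in that table, and does not overlap it. It read 25.7, 32.0 and 21.3 in wild type and 25.1, 22.0 and 34.9 on the arrays labelled Bmal1-/- (0.03, SE 0.17, 95% interval -0.34 to 0.40, limma adjusted p = 0.944). The 2 loci were not tested against each other.

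**Figure D4:**
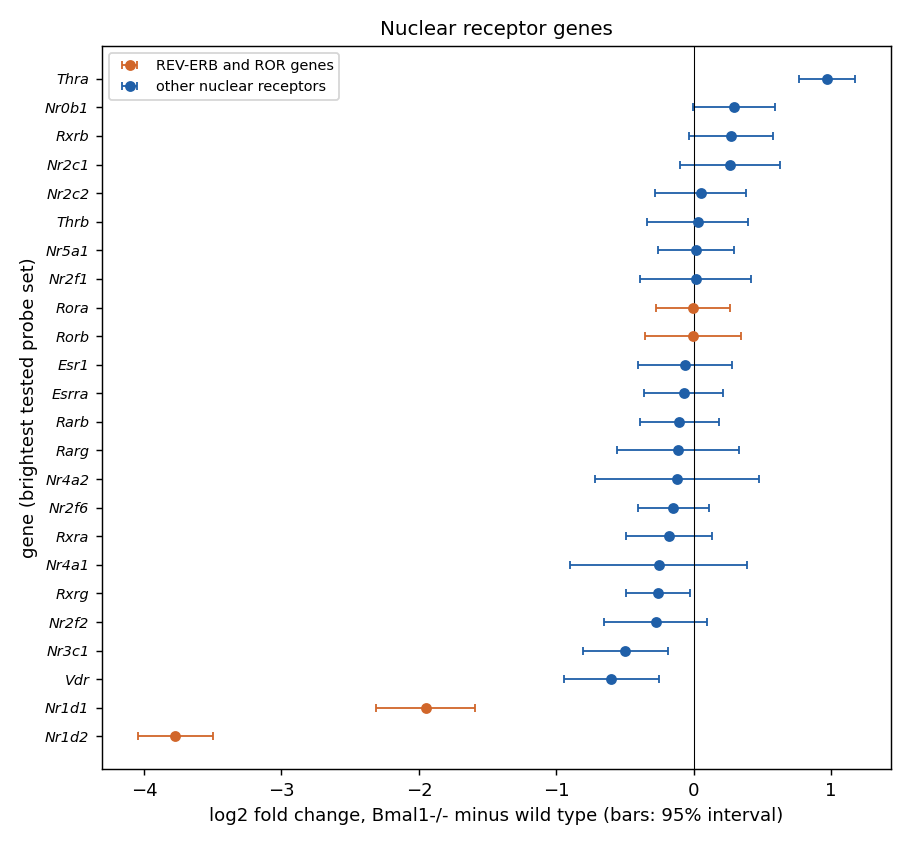
Log2 fold change (Bmal1-/- minus wild type) with its 95% interval for the 24 tested nuclear receptor genes, 1 probe set each, sorted by value, with the 4 REV-ERB and ROR genes in orange and 20 others in blue. Nr1d2 (-3.77) and Nr1d1 (-1.95) lie below all others, Thra (0.97) above all others, and Rora and Rorb lie at 0 in the middle.

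Profiles most like those of the REV-ERBs were sought among the other tested genes by the root-mean-square difference of centred log2 values over the 6 arrays, a measure that the genotype difference dominates. For Nr1d2 the nearest were Dbp (0.68), Ces1d, a carboxylesterase (0.88), and Nr1d1 (0.93). For Nr1d1 they were Ceacam10, a cell adhesion family gene (0.246), Grem1, an antagonist of bone morphogenetic proteins (0.247), and Lcn2, an iron-siderophore binding protein (0.28). Dbp fell by 2.43 on the log2 scale. Nr1d2 ranked 1 by absolute fold change among tested probe sets on the scale used here, so every other tested gene moved by less on it. That rank was lost with 1 added to each intensity, where Npas2 was at 5.15 and the brighter Nr1d2 probe set at -4.01. Of 4 endothelial markers 0 passed in limma, with 0 at an unadjusted p under 0.05. Of 4 macrophage markers 3 were tested and none passed in limma, with 2 at an unadjusted p under 0.05 (Csf1r and Cx3cr1), a level that 21.5% of all tested genes reached. The summed level of the 4 was 161.5 to 184.6 in wild type and 111.1 to 144.8 on the arrays labelled Bmal1-/-. The part of cell composition in the fall of the REV-ERB genes was not tested.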

How the data were processed

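RNA of 6 pituitary pools was hybridised to Affymetrix mouse arrays (biotin-labelled cRNA from 1 ug of total RNA, per the labels' protocols). The deposited values are linear intensity values made with MAS5 per the submitters' processing notes, and no source used here gives its version, target or detection calls. The mean trimmed by 2% at each end was 100.0 on all arrays. The 64 control probe sets were left out. Of the rest, 20380 probe sets name 1 gene, 691 several and 1555 none. Values became log2(intensity + 16), and the brightest 60% (13576, down to a mean of 17.3 on the intensity scale) were tested with limma 3.58.1 in R 4.3.3 (lmFit, eBayes with trend, two-sided, Benjamini-Hochberg over all tested probe sets, threshold 0.05). In list counts each gene is represented by its brightest tested probe set. Members and lists were chosen with earlier results of these data known. Named were all member probe sets, the clock targets, Thra and Thrb, the 3 most alike genes of each REV-ERB, and per other list up to 4 genes past the threshold or the 2 with the smallest p; further genes are named for contrast. Promoters come from RefSeq (GRCm38.p6, 32851 windows, 250 bases before to 50 after the start). A planned comparison of protein sequences was not made. Since the array annotation names no build, the RefSeq gene table served for neighbours alone. The fit was tested on simulated data. Alternatives left out each array, changed the pseudocount (1, 64), the scaling (quantile, equal medians) or the filter (none, brightest 40%), or used eBayes without trend, robust eBayes or array weights. The labels give no batch.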

Additional observations from a re-analysis of the deposited data

How the results depend on the processing

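The falls of Nr1d1 and Nr1d2 (both probe sets) kept direction and call under every alternative that tested them. The values ran from -3.57 to -0.90 for Nr1d1, from -4.01 to -3.23 for the brighter Nr1d2 probe set and from -1.93 to -0.80 for the dim one, and the pseudocount set both ends in all but the last, whose lower end came without Bmal1-/- replicate 5. The dim probe set passed no brightness filter with a pseudocount of 1, in the brightest 40%, or without wild-type replicate 2 or 3, and Nr1d1, Rorb and Npas2 none in the brightest 40%. All 5 clock targets kept their rise wherever tested. The brightest Rora probe set and Rorb changed sign without passing: with quantile normalization they were 0.017 and 0.037, with equal array medians 0.057 and 0.056, and with 1 array left out they ran from -0.048 to 0.066 and from -0.11 to 0.12. Rora 1420583_a_at stayed below 0 under all 15 alternatives, from -0.49 to -0.12, and never passed. The Nr1d2 minus Nr1d1 difference was -0.43 with a pseudocount of 1, -2.32 with 64, 0.12 with the dim Nr1d2 probe set and -1.96 to -1.73 with 1 array left out. The count of changed probe sets, 752, became 330 with no filter, 407 without the intensity trend and 314 (without wild-type replicate 3) to 950 (without wild-type replicate 2) with 1 array left out. With 1 array left out, Mycbp2 ran from -0.0076 to 0.29 and Thrb from -0.092 to 0.12, neither passing. Pgrmc1 and Vdr lost their calls under 12 of 15 and 10 of 14 alternatives. Of the other targets 2 rose, not 1, with a pseudocount of 64, with no filter or without any 1 wild-type array. No paired analysis was possible because the genotypes share no replicate number. Low MAS5 signal limits the readings under about 16, which include all Nr1d1 values on the arrays labelled Bmal1-/-.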
